A study of Mus musculus with 9 samples.

Results

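Cxcl9, Cxcl10, Cxcl11, Cxcl16 and Cx3cl1 are chemokines that draw T cells and natural killer cells. All 5 were taken by gene symbol, each was read by 1 probe set that names no other gene, and they are 5 of the 19938 genes measured on the arrays. JmjD2d-knockdown dendritic cells given LPS, wild-type dendritic cells given LPS and unstimulated wild-type dendritic cells were each measured on 3 Affymetrix mouse arrays, 9 in all. The cells were mouse bone marrow progenitors kept in 20 ng/ml each of the cytokines IL-6, IL-3 and SCF and turned into dendritic cells over 8 days, first with GM-CSF supernatant at 4% and SCF at 5 ng/ml for 4 days, then with GM-CSF without SCF for 4 days. LPS, the bacterial ligand of Toll-like receptor 4, acted for 4 h at 100 ng/ml before RNA was extracted. The knockdown cells carried a retroviral hairpin against the coding sequence of JmjD2d (gene Kdm4d, a demethylase of lysine 9 of histone H3) in the vector pSir-delta U6CHisD and had been selected in 2 mM histidinol, whereas both wild-type groups were untransduced. Arrays of unstimulated knockdown cells and of a control hairpin were not analysed here, so an effect of losing JmjD2d and an effect of infection and selection cannot be told apart. The mouse strain is not given in the sources used here.

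Cxcl9, Cxcl10 and Cxcl11 are small secreted chemokines that share the receptor Cxcr3, carried by activated T cells and natural killer cells. Their transcription is known to be driven by interferons through IRF factors, and that of Cxcl10 also by NF-kB. Dendritic cells use these chemokines to hold effector T cells beside them. Cxcl16 and Cx3cl1 (fractalkine) differ from them in form: each carries its chemokine domain on a stalk in the cell membrane, from which the proteases Adam10 and Adam17 release it. Cxcl16 binds Cxcr6 on effector and tissue-resident T cells and also takes up oxidised lipoprotein. Cx3cl1 binds Cx3cr1 on monocytes, macrophages and cytotoxic lymphocytes.

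The Cxcr3 ligands lie side by side on chromosome 5 of the mouse genome (RefSeq, GRCm38.p6). Cxcl9 spans 92321331 to 92328079, Cxcl10 spans 92346638 to 92348889 and Cxcl11 spans 92359544 to 92363296. Cxcl16 lies on chromosome 11, from 70454389 to 70459984, and Cx3cl1 on chromosome 8, from 94772180 to 94782427. RefSeq, whose assembly is of strain C57BL/6J, lists Cxcl11 as a transcribed pseudogene and the other members as protein-coding, so the Cxcl11 values below are transcript levels that need not stand for an intact chemokine.

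Upstream sequence from RefSeq was at hand for 3 of the 5 members, Cxcl9, Cxcl10 and Cx3cl1. It is shown because the results below turn on these genes: Cxcl9 and Cxcl10 were higher in both LPS-treated groups than in unstimulated cells, and Cx3cl1 was lower in knockdown than in wild-type cells after LPS. No sequence was tested against these values. Each window holds the 250 bases before the gene's start, on the gene's own strand and 5′ to 3′. Capitals mark matches to an NF-kB-like motif (GGG, 3 free bases, T, 1 free base, CC) or to the core of the interferon-stimulated response element (GAAA, 2 free bases, GAAA), searched on both strands. Cxcl9 is chr5:92328080-92328329, minus strand, Cxcl10 is chr5:92348890-92349139, minus strand, and Cx3cl1 is chr8:94771930-94772179, plus strand.
Cxcl9: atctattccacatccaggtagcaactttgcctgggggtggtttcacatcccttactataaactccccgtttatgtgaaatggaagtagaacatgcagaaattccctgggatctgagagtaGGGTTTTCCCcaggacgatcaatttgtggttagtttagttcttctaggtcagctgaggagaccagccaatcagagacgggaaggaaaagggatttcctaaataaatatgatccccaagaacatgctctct
Cxcl10: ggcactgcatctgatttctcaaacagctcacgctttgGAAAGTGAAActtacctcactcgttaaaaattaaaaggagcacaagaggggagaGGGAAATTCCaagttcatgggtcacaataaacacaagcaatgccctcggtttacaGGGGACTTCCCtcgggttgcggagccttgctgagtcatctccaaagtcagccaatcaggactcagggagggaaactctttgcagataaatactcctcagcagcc
Cx3cl1: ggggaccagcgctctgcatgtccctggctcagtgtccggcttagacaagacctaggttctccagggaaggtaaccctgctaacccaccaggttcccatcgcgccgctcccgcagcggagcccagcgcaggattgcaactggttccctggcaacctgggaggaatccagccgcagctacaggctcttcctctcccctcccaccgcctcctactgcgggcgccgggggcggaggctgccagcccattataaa
The Cxcl10 window held GAAAGTGAAA from 213 to 204 bases before the start. It also held GGGAAATTCC from 159 to 150 bases before the start, and overlapping NF-kB-like matches from 104 to 94 bases before it, GGGGACTTCC and GGGACTTCCC, the second of which reads as a match on both strands. The Cxcl9 window held GGGTTTTCCC from 130 to 121 bases before the start. The Cx3cl1 window held no match to these letters. The core of a gamma-activated site (TTC, 3 free bases, GAA) was also searched and was in none of these windows. Of 32851 RefSeq promoter windows of the same length, 14.9% held the NF-kB-like motif, 2.98% the core of the interferon-stimulated response element and 7.02% the core of a gamma-activated site. A match is a stretch of letters and was not tested as a binding site.

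All values are log2 RMA signals, in which a difference of 1 is a doubling. Array medians lay between 7.22 and 7.32, and arrays of 1 group correlated by 0.985 to 0.997 across genes. Kdm4d, the hairpin's target, read 7.43, 7.11 and 7.40 in LPS-treated knockdown cells (arrays numbered 1, 2 and 3, the order used throughout), against 7.79, 7.54 and 7.74 in LPS-treated wild-type cells. Its difference was -0.38 (SE 0.13, limma adjusted p = 0.278), and the call was not made. The 2 groups did not overlap, as in 8.38% of all genes in that direction. Unstimulated wild-type cells read 7.24, 7.65 and 7.62, which overlapped the knockdown values. All these Kdm4d values lay near the array medians, so a loss of its transcript is not clearly shown. The dendritic cell marker Itgax (CD11c) read 12.79, 12.31 and 12.29 in knockdown cells after LPS, 13.14, 12.67 and 13.01 in wild-type cells after LPS and 13.30, 12.53 and 13.10 in unstimulated cells. Flt3, a receptor of conventional dendritic cells, lay between 6.49 and 7.05 on all 9 arrays, and an RMA scale has no zero from which absence could be read. In RNA from whole cultures, fewer cells that make a transcript and less transcript per cell cannot be told apart.

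The plot of all 5 chemokines by array shows 3 patterns. Cxcl9 and Cxcl10 were high in both LPS-treated groups. Cxcl11 was high on the arrays numbered 2 of both LPS-treated groups. Cxcl16 and Cx3cl1 were high in LPS-treated wild-type cells and near the unstimulated level in LPS-treated knockdown cells.

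**Figure D1:**
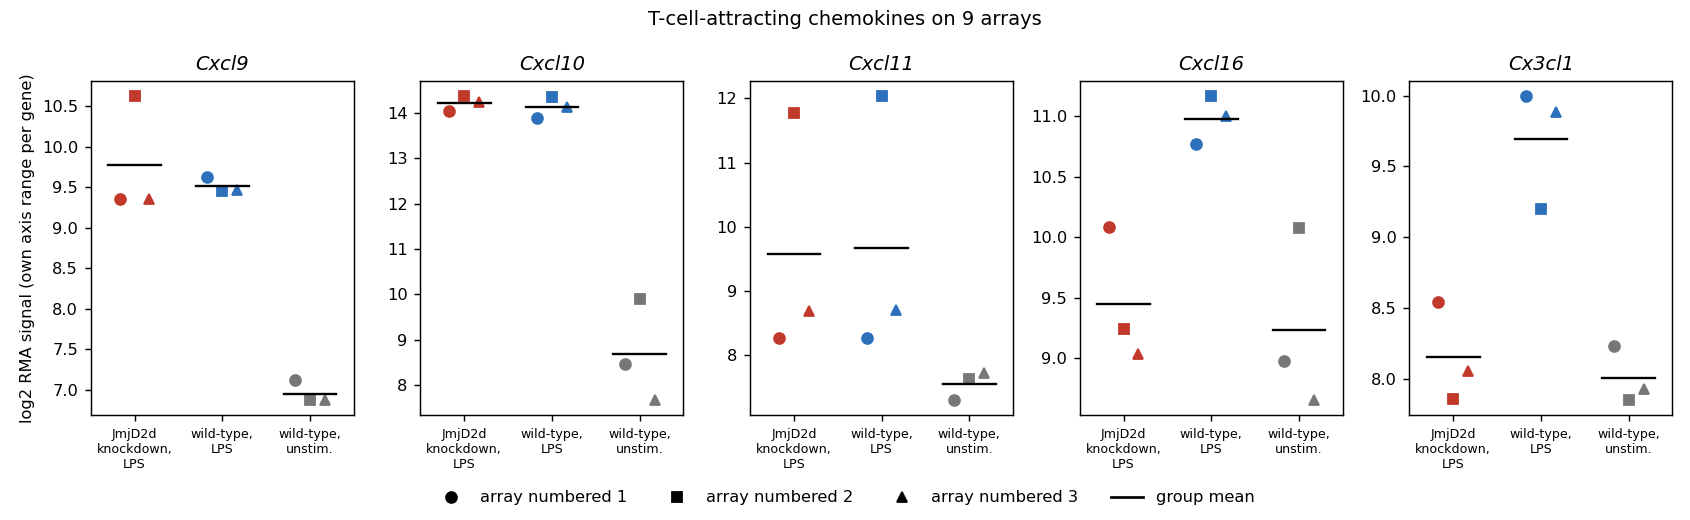
Log2 RMA signal of each chemokine (vertical axis, own range per gene) in LPS-treated knockdown, LPS-treated wild-type and unstimulated wild-type cells; each point is 1 array, its shape gives the replicate number, and bars are group means (n = 3 arrays each). Cx3cl1 reads 7.86 to 8.55 in knockdown cells, below all 3 LPS-treated wild-type values (9.20 to 9.99), while Cxcl10 reads above 13.8 in both LPS-treated groups.

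Among the Cxcr3 ligands, Cxcl10 had the largest response to LPS. It read 14.04, 14.36 and 14.24 in LPS-treated knockdown cells, 13.88, 14.34 and 14.14 in LPS-treated wild-type cells and 8.47, 9.91 and 7.67 in unstimulated cells. Both LPS-treated groups lay far above all unstimulated arrays and overlapped each other. In wild-type cells Cxcl10 rose 43.3-fold (log2 difference 5.44, SE 0.47, limma adjusted p = 0.000689), and only 4 of the 19938 genes, Cxcl10 included, had a difference as large or larger. LPS-treated knockdown cells stood above unstimulated wild-type cells by 5.53 (SE 0.47, adjusted p = 0.000581). Between knockdown and wild-type cells after LPS the difference was 0.10 (SE 0.47, 95% confidence interval -0.98 to 1.17, adjusted p = 0.947). That SE draws on the spread of all 3 groups. The SD was 0.17 in knockdown and 0.23 in wild-type cells after LPS, but 1.13 in unstimulated cells. In a fit of the 6 LPS arrays alone the SE was 0.14 (limma adjusted p = 0.817). Array by array, knockdown minus wild-type was 0.16, 0.02 and 0.11. The brightest probe set of each array read between 14.56 and 14.66, so the LPS-treated Cxcl10 values lay close to the upper end of the scale, and whether that narrowed the difference was not tested.

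Cxcl9 rose after LPS on every array. It read 9.36, 10.63 and 9.36 in LPS-treated knockdown cells, 9.62, 9.45 and 9.47 in LPS-treated wild-type cells and 7.12, 6.87 and 6.87 in unstimulated cells. The rise in wild-type cells was 5.9-fold (2.56, SE 0.30, adjusted p = 0.0023), and its 3 values within array numbers, 2.51, 2.58 and 2.60, were close together. The unstimulated Cxcl9 values lay below every array's median, and without detection calls they are not shown to be above background, so folds over them may understate the change. In knockdown cells after LPS the level exceeded that of unstimulated wild-type cells by 2.82 (SE 0.30, adjusted p = 0.0014). Knockdown minus wild-type after LPS was 0.26 (SE 0.30, interval -0.43 to 0.96, adjusted p = 0.756), and that sign came from 1 array. Knockdown array 2 was 1.18 above its wild-type counterpart, while arrays 1 and 3 differed by -0.27 and -0.11, and without knockdown array 2 the estimate was -0.16. The same knockdown array had the highest value of Ifnb1, the gene of interferon beta, at 7.20 against 6.57 and 6.50 on the other knockdown arrays and 6.61, 6.57 and 6.50 in wild-type cells after LPS. All Ifnb1 values lay below every array's median and are likewise not shown to be above background. The part of Ifnb1 in the Cxcl9 value was not tested.

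Cxcl11 was highest on the arrays numbered 2 of both LPS-treated groups. It read 8.28, 11.77 and 8.69 in LPS-treated knockdown cells, 8.28, 12.03 and 8.70 in LPS-treated wild-type cells and 7.30, 7.63 and 7.72 in unstimulated cells. The array numbered 2 stood above the mean of arrays 1 and 3 by 3.29 in knockdown and 3.55 in wild-type cells after LPS, but by 0.12 without stimulation. Over all genes these offsets ranked 2 and 3 from the top in the LPS-treated groups and 4477 in the unstimulated one. The LPS difference in wild-type cells was 2.12 (SE 1.13, interval -0.47 to 4.71, adjusted p = 0.272) and was not called, although the groups did not overlap. Within array numbers LPS minus unstimulated was 0.97, 4.41 and 0.98. With the arrays numbered 2 left out, a choice made after these values were seen, Cxcl11 was called higher after LPS in wild-type cells (0.98, SE 0.22, adjusted p = 0.0253) and higher in LPS-treated knockdown than in unstimulated cells (0.97, SE 0.22, adjusted p = 0.0297). Knockdown minus wild-type after LPS was -0.09 (SE 1.13, interval -2.68 to 2.49, adjusted p = 0.98), and -0.01 (SE 0.22) without the arrays numbered 2. Array by array this difference was 0, -0.26 and -0.01, so arrays of the same number lay close together. The wide interval holds the spread between array numbers within each group. With the array number as a block the SE was 0.695 (limma adjusted p = 0.964).

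Interferon-induced genes also read higher on the arrays numbered 2. Over 20 measured members of a list that leaves out the chemokines, the mean signal was 11.37, 12.22 and 11.79 in LPS-treated knockdown cells, 11.42, 12.69 and 11.58 in LPS-treated wild-type cells and 9.13, 10.22 and 8.93 in unstimulated cells. The array numbered 2 stood above the mean of arrays 1 and 3 by 0.64, 1.19 and 1.18 in the same 3 groups. Without stimulation the same offset was 1.84 for Cxcl10, 1.26 for Cxcl16 and -0.23 for Cx3cl1. Neutrophil markers had their lowest mean on the array numbered 2 of each group, at 7.63, 8.93 and 8.33. Macrophage markers did so too, at 10.10, 10.85 and 10.76. Dendritic cell markers were lowest there in LPS-treated and unstimulated wild-type cells (9.66 and 9.48). In knockdown cells array 2 (8.56) and array 3 (8.55) were nearly equal for them. Whether the cultures numbered 2 came from another mouse strain or batch is not given in the sources used here. Cxcl11, listed as a pseudogene in C57BL/6J, was higher after LPS within every array number, by 0.97, 4.41 and 0.98 in wild-type cells. The size of the rise on number 2 was not shared by the other cultures, and its cause was not tested. How far these differences between array numbers bear on the chemokines was not tested.

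**Figure D2:**
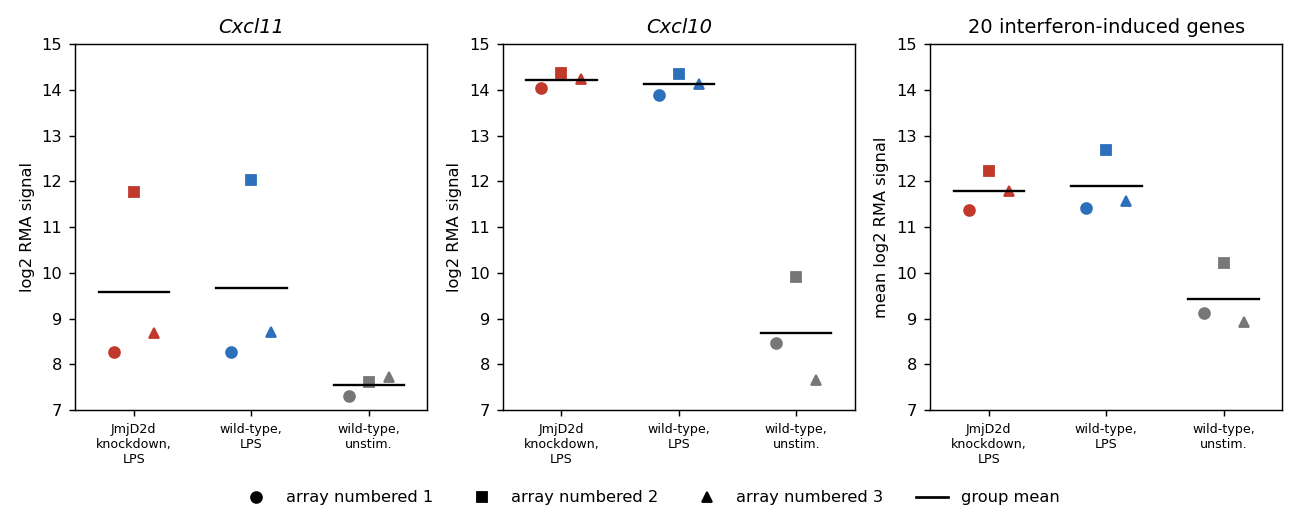
Log2 RMA signal of Cxcl11, Cxcl10 and the mean of 20 interferon-induced genes on each array, all on 1 vertical scale, with point shape giving the replicate number and bars the group mean (n = 3 arrays each). On the arrays numbered 2 (squares) Cxcl11 reads 11.77 in knockdown and 12.03 in wild-type cells after LPS, against 8.28 to 8.70 on the other LPS arrays.

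Of the membrane-bound chemokines, Cx3cl1 showed the clearest difference between knockdown and wild-type cells. It read 8.55, 7.86 and 8.06 in LPS-treated knockdown cells, 9.99, 9.20 and 9.88 in LPS-treated wild-type cells and 8.24, 7.85 and 7.93 in unstimulated cells. The LPS-treated wild-type arrays lay above all 6 others, and the knockdown values overlapped the unstimulated ones. LPS raised Cx3cl1 3.21-fold in wild-type cells (1.68, SE 0.24, adjusted p = 0.00479). After LPS it was 2.9-fold lower in knockdown than in wild-type cells (-1.54, SE 0.24, interval -2.09 to -0.98, adjusted p = 0.0374). Array by array that difference was -1.45, -1.34 and -1.82. With the array number as a block its SE was 0.12 and its limma adjusted p 0.00618, and 1.24% of all genes were called lower in that fit. LPS-treated knockdown cells differed from unstimulated wild-type cells by 0.15 (SE 0.24, interval -0.41 to 0.70, adjusted p = 0.835). The knockdown call was not made in a fit of the 6 LPS arrays alone (adjusted p = 0.107), nor, at adjusted p = 0.0591 to 0.146, on leaving out unstimulated array 1 or 3, wild-type LPS array 1 or 3, or knockdown array 2 or 3. Over all 19 alternative settings the difference stayed between -1.78 and -1.38 and the adjusted p between 0.000687 and 0.146.

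Cxcl16 had a difference of the same size but a wider spread. It read 10.08, 9.24 and 9.03 in LPS-treated knockdown cells, 10.77, 11.16 and 11.00 in LPS-treated wild-type cells and 8.97, 10.08 and 8.65 in unstimulated cells. The LPS-treated wild-type arrays again lay above all others, while knockdown array 1 and unstimulated array 2 both reached 10.08. LPS raised Cxcl16 3.35-fold in wild-type cells (1.74, SE 0.38, adjusted p = 0.0247), a call not made without unstimulated array 1 or 3 or wild-type LPS array 1 or 3 (adjusted p = 0.0666 to 0.0933). Knockdown minus wild-type after LPS was -1.53 (SE 0.38, interval -2.41 to -0.65), which did not pass the adjusted test (adjusted p = 0.123). With the array number as a block the difference was not called either (limma adjusted p = 0.0841). It was -0.69 between the arrays numbered 1, against -1.93 and -1.97 for numbers 2 and 3. LPS-treated knockdown cells differed from unstimulated wild-type cells by 0.22 (SE 0.38, interval -0.66 to 1.10, adjusted p = 0.852). A fit with array weights called the knockdown difference (-1.39, adjusted p = 0.0187), and in that fit 2225 genes were lower in knockdown cells against 72 without weights.

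**Figure D3:**
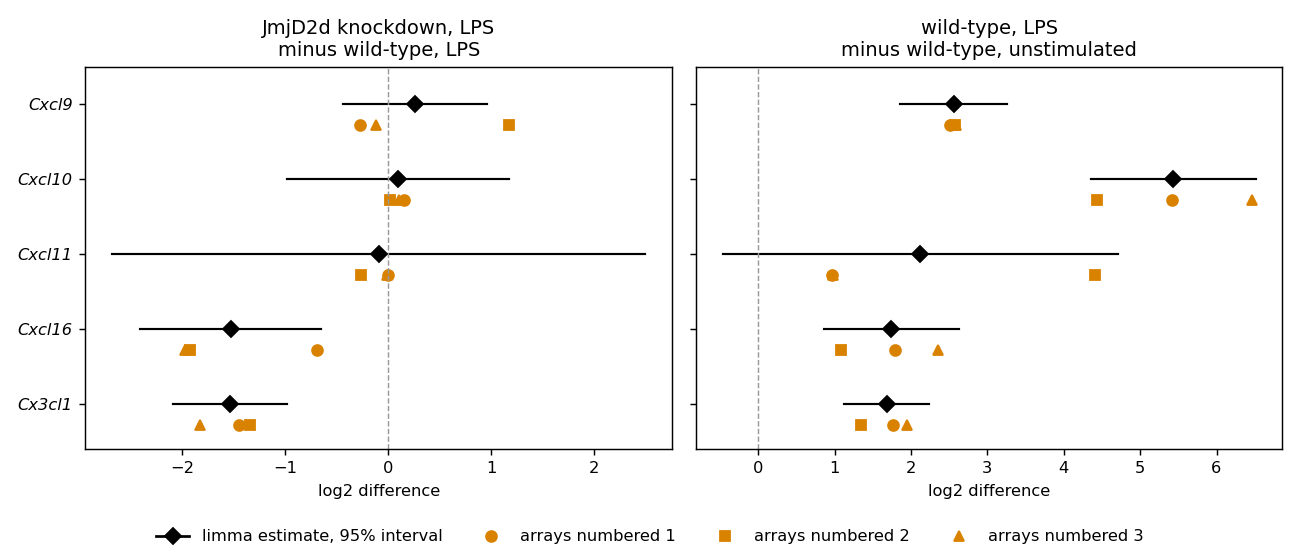
Log2 differences of the 5 chemokines (horizontal axis), knockdown minus wild-type after LPS on the left and LPS minus unstimulated in wild-type cells on the right; diamonds and lines are the limma estimate and its 95% interval, and orange points are differences between arrays of the same number. On the left Cxcl16 and Cx3cl1 lie at -1.53 and -1.54 with all 3 points below 0, and Cxcl9, Cxcl10 and Cxcl11 lie between -0.09 and 0.26.

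Counted together, 4 of the 5 chemokines rose after LPS in wild-type cells (Cxcl9, Cxcl10, Cxcl16 and Cx3cl1), where 3.99% of all genes were called higher. In all 5 the LPS-treated and unstimulated values did not overlap, as in 12.8% of all genes in that direction. Between knockdown and wild-type cells after LPS, 1 of 5 was lower (Cx3cl1), where 0.361% of all genes were called lower, and none was higher by limma, where 0.401% of all genes were (none of the 5 had a positive difference at an unadjusted p under 0.05). Cxcl16 and Cx3cl1 were the 2 members whose knockdown values lay wholly below the wild-type ones, as in 8.38% of all genes. Only 72 of the 19938 genes, or 0.361%, had a difference at or below that of Cxcl16. Between LPS-treated knockdown and unstimulated wild-type cells 2 of 5 were higher (Cxcl9 and Cxcl10), against 4.23% of all genes, and in 3 of 5 the groups did not overlap, against 12.2%. The median difference of the 5 members between knockdown and wild-type cells was -0.09, against -0.03 over all genes, and that between LPS and no stimulation in wild-type cells was 2.12, against 0.04. The 3 comparisons share arrays, and whether the knockdown difference of the membrane-bound chemokines differs from that of the Cxcr3 ligands was not tested.

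**Figure D4:**
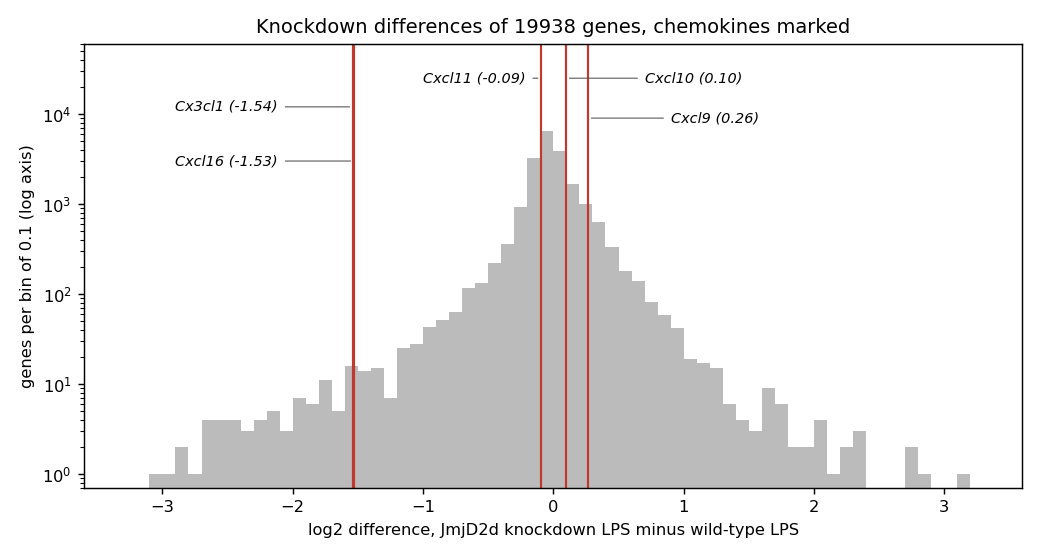
Number of genes (vertical log axis) in each bin of 0.1 of the log2 difference, knockdown minus wild-type after LPS (horizontal axis, n = 3 arrays each), over 19938 genes; red lines mark the 5 chemokines. Cxcl16 and Cx3cl1 lie in the sparse lower tail at -1.53 and -1.54, and the Cxcr3 ligands lie near the centre.

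Dendritic cell markers also averaged lower in knockdown than in wild-type cells after LPS. The mean signal of 14 dendritic cell markers was 8.55 to 9.55 in knockdown cells after LPS, 9.66 to 10.44 in wild-type cells after LPS and 9.48 to 10.47 in unstimulated cells. The largest of their differences from wild-type cells after LPS was that of Ccr7, the lymph node homing receptor (-2.81, SE 0.59, adjusted p = 0.0815, paired 0.0111), and the median was -0.98. None of the 14 was called lower between knockdown and wild-type cells by limma, where 0.361% of all genes were. In the fit with the array number as a block (the paired fit) 6 of the 14 were called lower, against 1.24% of all genes. The 10 mast cell markers averaged 6.31 to 6.68 in knockdown cells, 7.05 to 7.45 in wild-type cells after LPS and 6.67 to 6.95 in unstimulated cells, with 0 called and 3 lower in the paired fit. Their knockdown differences ran from -2.34 to 0.07 with a median of -0.29. Their LPS differences in wild-type cells ran from -1.03 to 3.23, so the list did not move together. The 11 neutrophil markers averaged 7.63 to 9.76 in knockdown cells, 8.93 to 10.40 in wild-type cells after LPS and 8.33 to 9.55 in unstimulated cells. Of these, 0 were called and 1 was lower in the paired fit. Of 10 endothelial, stromal and epithelial markers, which cover other known sources of Cx3cl1, 1 was lower in knockdown cells (Pdgfrb, a growth factor receptor, -1.49, adjusted p = 0.0418), where 0.361% of all genes were called lower, and their mean was 7.10 to 7.25, 7.23 to 7.55 and 7.09 to 7.20. Their knockdown differences ran from -1.49 to 0.28 with a median of -0.12. Their LPS differences in wild-type cells ran from -0.03 to 2.04, the highest being that of Pdgfrb, so this list did not move together either. Macrophage markers (11 measured) averaged 10.10 to 11.13, 10.85 to 11.30 and 10.76 to 11.41, T and NK cell markers (12) 6.27 to 6.40, 6.29 to 6.49 and 6.36 to 6.43, and B cell markers (4) 5.96 to 6.04, 5.99 to 6.09 and 5.92 to 5.95, with 0 called in these lists between knockdown and wild-type cells. The part of these cell types in the chemokine values was not tested.

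Among the receptors of these chemokines, Cx3cr1 was high on the same arrays as its ligand. It read 8.29, 7.91 and 8.25 in LPS-treated knockdown cells, 9.17, 8.69 and 9.65 in LPS-treated wild-type cells and 7.71, 8.19 and 7.82 in unstimulated cells. The LPS-treated wild-type arrays lay above all others. Over all genes 12.8% lay wholly higher after LPS in wild-type cells and 8.38% wholly lower in knockdown cells. Cx3cr1 rose after LPS in wild-type cells by 1.26 (SE 0.24, adjusted p = 0.0138), where 3.99% of all genes were called higher. Its difference in knockdown cells, -1.02 (SE 0.24, adjusted p = 0.102), did not pass the test, where 0.361% of all genes were called lower. Cxcr3, Cxcr6 and Ackr3 (an atypical receptor that binds Cxcl11) were called in none of the 3 comparisons. With shares this low, they are not set apart from all genes by lacking a call. All values of Cxcr6 and Ackr3 also lay below every array's median and are not shown to be above background. Their differences between knockdown and wild-type cells were -0.09, 0.02 and -0.08, and those between LPS and no stimulation in wild-type cells -0.14, 0.06 and 0.30.

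The proteases that release Cxcl16 and Cx3cl1 moved in opposite directions after LPS in wild-type cells. Adam17 rose by 0.66 (SE 0.12, adjusted p = 0.00974) and Adam10 fell by 0.32 on the log2 scale (SE 0.08, adjusted p = 0.0435), where 3.99% of all genes were called higher and 6.86% lower. Between knockdown and wild-type cells after LPS their differences were -0.14 and 0.10 (adjusted p = 0.665 and 0.64). Dpp4, which trims Cxcr3 ligands, differed by -0.04 in that comparison (adjusted p = 0.855) and by 0.11 after LPS in wild-type cells (adjusted p = 0.377).

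Of 25 measured inducers and signal transducers of Cxcr3 ligands, 11 rose and 1 fell after LPS in wild-type cells, against 3.99% and 6.86% of all genes. In the paired fit 13 rose and 2 fell, against 5.19% and 9.57%. The 1 that fell was the interferon gamma receptor chain Ifngr1 (-0.78, SE 0.16, adjusted p = 0.0208), and Tlr4, the receptor of LPS, was the other in the paired fit. The 6 with the smallest p were the interferon regulatory factor Irf1 (1.64, SE 0.11), Tnf (2.35, SE 0.18), the kinase Jak2 (1.43, SE 0.13), the kinases Ikbke (1.68, SE 0.19) and Tbk1 (0.72, SE 0.09), which act on IRF factors, and the NF-kB subunit Relb (1.23, SE 0.14). Their adjusted p lay between 0.000286 and 0.00281. None of the 25 was called between knockdown and wild-type cells after LPS, by limma or in the paired fit. Over all genes 0.401% were called higher and 0.361% lower by limma, and 1.51% and 1.24% in the paired fit. The median difference of the 25 was -0.09, against -0.03 over all genes. Jak2 was nearest to a call, at -0.60 (SE 0.13, adjusted p = 0.0856). Ifnb1 differed by 0.35 after LPS in wild-type cells (SE 0.17, adjusted p = 0.23) and Ifng, the gene of interferon gamma, by 0.16 (SE 0.08, adjusted p = 0.222). All values of Ifnb1 and Ifng lay below every array's median. Without detection calls neither gene is shown to be above background, so these differences may understate a change. Irf7, a factor of the interferon response, differed by 2.19 (SE 0.81), with an adjusted p of 0.13 that was 0.00422 in the paired fit, and Stat2 by 0.99 (SE 0.30), with an adjusted p of 0.07 that was 0.0132 in the paired fit. Ifngr1, Tlr4, Ifnb1, Ifng, Irf7 and Stat2 were named after their values were seen.

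Of the 20 interferon-induced genes 15 rose after LPS in wild-type cells (3.99% of all genes) and 20 did so in the paired fit, where 5.19% of all genes were called higher, among them the guanylate-binding protein Gbp5 (3.99), Parp14 (1.88), the RNA sensor Ifih1 (2.28) and Cmpk2 (3.81). None of the 20 was called between knockdown and wild-type cells after LPS, where 0.401% of all genes were called higher and 0.361% lower. With shares this low, a list of 20 without a call is not set apart from all genes. The median difference of the 20 was -0.14 and the range -0.70 to 0.92. Of 30 other chemokine ligands 6 rose after LPS in wild-type cells, against 3.99% of all genes, with Ccl4 (3.83), Ccl3 (0.45), Cxcl2 (4.94) and Ccl5 (3.16), ligands for monocytes, T cells and neutrophils, at the smallest p. Between knockdown and wild-type cells 1 of the 30 was lower, the platelet chemokine Ppbp (-2.27, SE 0.37, adjusted p = 0.0418), where 0.361% of all genes were called lower. In the paired fit 2 of the 30 were lower, Ppbp and Ccl1 (-0.83, paired adjusted p = 0.0343 in limma), against 1.24% of all genes. The median difference of the 30 was -0.10 and the range -3.08 to 0.50. The lowest was that of Ccl22, which was not called by limma or in the paired fit. It read 11.96, 8.75 and 9.76 in knockdown and 13.29, 13.10 and 13.30 in wild-type cells after LPS. Unstimulated cells read 11.55, 11.93 and 10.59, so its LPS-treated wild-type values lay above all others.

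The genes whose signal was most like each chemokine were ranked by Pearson correlation over the 9 arrays among 1381 genes with an SD of at least 0.5. The 5 chemokines and unnamed loci (accession-like symbols such as Gm, Rik and LOC) had been left out of these 1381. These arrays fall into 3 groups that drive much of any such value, so the correlations describe the pattern and were not tested. Cxcl9 was most like Peli1, a ubiquitin ligase of Toll-like receptor signalling (0.986), Gbp5 (0.975) and the retinol dehydrogenase Rdh12 (0.975). Cxcl10 was most like Ifi205 (0.998), Calcrl, a receptor for peptide hormones (0.996), and Ccrl2, an atypical receptor for chemerin (0.996). Cxcl11 was most like Cgas, a sensor of DNA (0.975), Il15ra, the receptor chain that presents IL-15 (0.967), and Slfn3 (0.96). Il15ra showed the same high arrays, with 8.88, 10.66 and 9.45 in LPS-treated knockdown cells, 9.06, 11.55 and 9.15 in LPS-treated wild-type cells and 8.36, 8.92 and 8.27 in unstimulated cells.

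Cxcl16 was most like Hdc, which makes histamine and is 1 of the 10 mast cell markers (0.963), Tdgf1, a growth factor co-receptor (0.956), and the phospholipase Pla1a (0.922). Cx3cl1 was most like Sema7a, a membrane-anchored semaphorin (0.986), Serpinb9, an inhibitor of granzyme B (0.98), and Fscn1, the actin bundler of dendrites (0.97). Sema7a read 7.78, 7.01 and 7.08 in LPS-treated knockdown cells, 9.52, 8.83 and 9.50 in LPS-treated wild-type cells and 7.71, 7.38 and 7.09 in unstimulated cells, so every LPS-treated wild-type value lay above all others. Among the 5 chemokines themselves the closest pairs were Cxcl9 with Cxcl10 (0.943) and Cxcl16 with Cx3cl1 (0.82), and the least alike were Cxcl11 and Cx3cl1 (0.089).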

How the data were processed

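RNA from 9 cultures was measured on 1 array each. The authors deposited log2 values made with RMA, as the submitters' processing notes state without a version; the genome build is not given in the sources used here. Of 35556 deposited probe sets 21789 named a single gene. Symbols were updated through Entrez identifiers to RefSeq (21698 matched), and the probe set with the highest mean stood for each of 19938 genes. limma 3.58.1 (R 4.3.3) was fitted to all 9 arrays with a mean per group and no further normalization. Tests are two-sided, p-values were adjusted by Benjamini-Hochberg over all genes, and an adjusted p under 0.05 is a call. Confidence intervals are at 95% and unadjusted. The code was tested on simulated data.

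The design text calls the cultures independent. Deviations from group means had correlations of 0.14 to 0.48 where 2 arrays carried 1 replicate number (9 pairs) and of -0.41 to 0.25 where they did not (18 pairs). By this check the numbers pair the arrays. The values and calls in the text are nevertheless from the fit without pairing, unless the paired fit is named. The fit with that number as a block is called the paired fit. The number of arrays limits the precision.

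The members, gene lists and alternatives were chosen with earlier results of these data known. The text names the 5 members, Kdm4d, all receptors and proteases, called members of the other lists with the smallest p (6 of the inducers, 4 of the interferon-induced genes and of the other chemokines) and the 3 genes most like each member. Itgax, Flt3, Pdgfrb, Ccr7, Ccl1, Ccl22, Ifngr1, Tlr4, Ifnb1, Ifng, Irf7 and Stat2 are outside this rule and were named after their values were seen. Probe sets naming several genes or none, and listed genes without a probe set of their own, were left out.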

Additional observations from a re-analysis of the deposited data

How the results depend on the processing

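Of 285 values of the 5 chemokines (15 differences under 19 alternatives), 261 kept their direction and side of the threshold, 11 lost a call, 3 gained one and 10 changed sign. With the replicate number as a block (the paired fit) no chemokine's call changed, while the genes higher and lower in knockdown than in wild-type cells after LPS came to 301 and 247, against 80 and 72 without it. With only the 6 LPS arrays these were 14 and 19, and 0 chemokines were lower. Quantile normalization gave 111 lower genes. Array weights gave 2058 higher and 2225 lower genes, and 2 lower chemokines (Cxcl16 and Cx3cl1). In that fit 4155 genes were higher and 4302 lower after LPS in wild-type cells, and 2065 and 2972 between LPS-treated knockdown and unstimulated cells. Leaving out all arrays numbered 2, chosen after seeing the data, gave 427 and 241, 1757 and 3152, and 1313 and 2490 in the same 3 comparisons.

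Leaving out 1 array at a time gave 11 to 257 genes higher and 7 to 126 lower in knockdown than in wild-type cells, with 0 to 1 chemokines lower. It gave 393 to 1246 higher and 475 to 2178 lower after LPS in wild-type cells, and 433 to 1005 higher and 601 to 1597 lower between LPS-treated knockdown and unstimulated cells. Every change of sign was in a difference that was not called. For knockdown minus wild-type after LPS, Cxcl9 was -0.025 with array weights and -0.19 without the arrays numbered 2, and leaving out 1 array it ran from -0.16 (without knockdown array 2) to 0.48. Cxcl10 ran from -0.024 (without wild-type LPS array 1) to 0.21. Cxcl11 ran from -1.19 to 1.09 and was positive without knockdown array 1 or 3 or wild-type LPS array 2. For LPS-treated knockdown minus unstimulated wild-type cells, Cxcl16 ran from -0.10 to 0.64, negative without knockdown array 1 or unstimulated array 3, and Cx3cl1 from -0.048 (without knockdown array 1) to 0.30. Beyond the alternatives' own make-up the cause was not tested. The 3 arrays of each group limit the precision, as the intervals given above show.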
